A study of Homo sapiens with 15 samples.

Results

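The D cyclins, the kinases they activate, the inhibitors of those kinases and the pocket protein RB1 were followed in MM.1S cells treated with compounds against the coactivators CBP and p300. The members were named by symbol: CCND1 (ENSG00000110092), CCND2 (ENSG00000118971) and CCND3 (ENSG00000112576), CDK4 (ENSG00000135446) and CDK6 (ENSG00000105810), CDKN1B (ENSG00000111276) and CDKN2C (ENSG00000123080), and RB1 (ENSG00000139687). These are 8 of the 47459 genes with values, and 7 of the 8 passed the filter on low values. MM.1S is an established human multiple myeloma line, a tumour of plasma cells, grown in RPMI medium with serum. Cells were treated for 6 h with DMSO, the solvent control, with A-485, with GNE-781, with both of these inhibitors (the combination), or with dCBP-1. Each compound was used at 100 nM, and each of the 5 groups had 3 libraries. A-485 inhibits the acetyltransferase activity of CBP and p300, and GNE-781 blocks their bromodomains. dCBP-1 is a degrader in which a bromodomain ligand like GNE-781 is linked to a ligand of cereblon, an E3 ubiquitin ligase subunit. All values come from this line alone, and the labels do not say whether libraries were separate cultures, so the spread behind each p-value may be technical.

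D cyclins are the unstable regulatory subunits of CDK4 and CDK6. The active kinases phosphorylate RB1, which then releases E2F factors, and the genes of S phase entry are transcribed. INK4 inhibitors such as p18, the product of CDKN2C, bind CDK4 and CDK6 themselves, whereas p27, the product of CDKN1B, binds cyclin-kinase complexes and restrains CDK2. Raised expression of a D cyclin gene is a common feature of multiple myeloma. In tumours with a MAF translocation, which MM.1S carries, CCND2 is the D cyclin known to be activated.

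Levels are normalized read counts from sequencing of the 3′ ends of mRNA, in which reads do not scale with transcript length. Depth was 13.1 to 18.3 M reads per library. A count of 3 reads, taken here as the upper limit for a count of 0, equalled 2.37 to 3.64 normalized counts (counting error only). Plasma cell markers were present, with 9 of 9 tested and a summed level of 25725 to 68956 over the libraries. Of these 9, 8 fell with dCBP-1, 8 with the combination, 7 with GNE-781 and 3 with A-485. The shares of all genes tested that were called lower were 18.5%, 9.6%, 8.81% and 1.79%, in that order. Fewer of the 9 were called lower with A-485, GNE-781 and the combination without DMSO replicates 1 and 2, described below. Markers of other cells were near 0. Their summed levels were 0 to 18.2 for B cells, 4.37 to 25.3 for T cells, 0 to 34.0 for myeloid cells and 8.33 to 34.4 for fibroblasts, with CD3D and CSF1R at 0 reads in every library. CD14 (1.62 with DMSO, 8.74 with dCBP-1) and PDGFRB (7.71 and 23.0) were called higher with dCBP-1 at these low levels, and neither was called without DMSO replicates 1 and 2, described next. DMSO replicates 1 and 2 stood apart, with 23.1% and 19.7% of reads from mitochondrially encoded genes against 14.3% to 17.0% in the other 13 libraries. At a matched depth of 13.1 M reads they had 16287 and 17386 genes with a read, against 18727 to 20578. Results against DMSO are therefore also given without both of these libraries where the call changed. DMSO replicate 3 is then the only control, so in a lost call, dependence on those libraries and loss of control replicates cannot be told apart.

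With dCBP-1, CCND1, CCND2 and CDK6 fell 5.61- to 18.6-fold, CDK4, CDKN1B and RB1 fell 1.42- to 1.51-fold, and CCND3 rose 1.46-fold. In bulk RNA, fewer cells with a transcript and less of it per cell cannot be told apart. Folds are on the log2(value + 1) scale, and genes are called risen or fallen at a Benjamini-Hochberg adjusted p below 0.05 in limma-trend over 16104 genes. Thus 6 of the 7 tested members fell and 1 rose, in a comparison in which 37.8% of all genes tested were called, 18.5% as lower and 19.3% as higher. With DMSO replicates 1 and 2 left out, 5 members were called lower and 0 higher, since CCND3 and RB1 were lost, and the number of all genes called went from 6092 to 3788. The median log2 fold change was -0.59 over the members and 0.07 over all genes tested. The libraries of the 2 groups did not overlap for any tested member, 6 lower and 1 higher, whereas such separation was seen for 44.3% of all genes tested (22.5% lower, 21.8% higher). A fall of 1 or more on the log2 scale was called for 8.83% of genes, and CCND1, CCND2 and CDK6 were among these.

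The inhibitors moved fewer members. A-485 lowered 2 members, CCND1 and CCND2, where 2.14% of all genes were called, 1.79% as lower. With A-485, 0 members and 12 genes were called without DMSO replicates 1 and 2. The count was also 0 members without DMSO replicate 1, DMSO replicate 2, A-485 replicate 2 or A-485 replicate 3, and in a fit of these groups alone. GNE-781 lowered 3, CCND1, CCND2 and CDK6, where 16.6% were called, 8.81% as lower and 7.82% as higher. The combination lowered the same 3 members, where 21% were called, 9.6% as lower and 11.4% as higher. For GNE-781 and the combination these counts were 2, with CCND2 lost, and 3 without DMSO replicates 1 and 2. No member was called higher with A-485, GNE-781 or the combination. The plot of values by library shows these patterns for all 8 members.

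**Figure D1:**
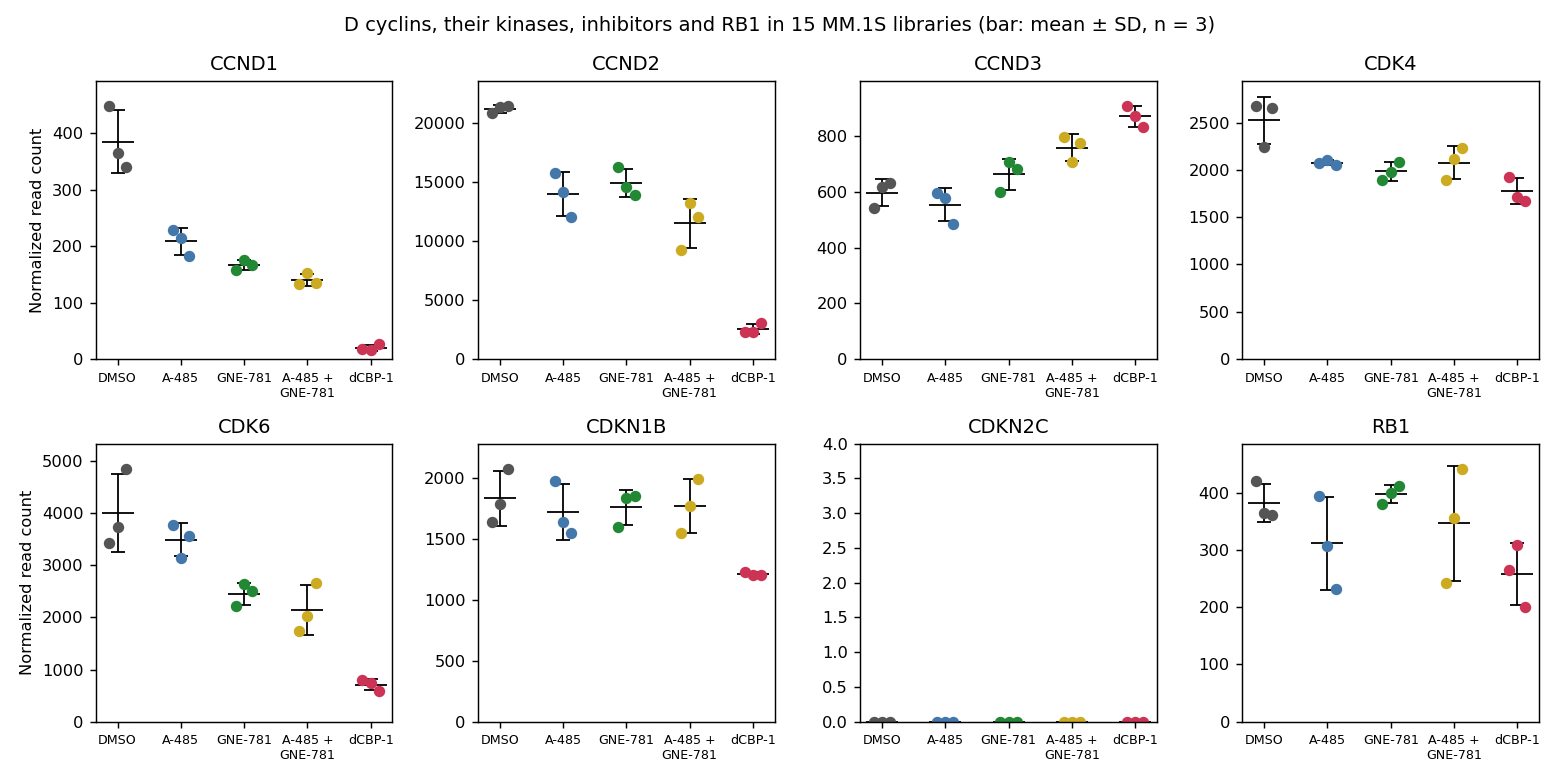
Normalized read counts (vertical axes, linear, each from 0) of the 8 members in the 15 libraries, by treatment; points are libraries and bars are the mean ± SD of 3. CCND1, CCND2 and CDK6 are lowest in the 3 dCBP-1 libraries, CCND3 is highest there, and CDKN2C is at 0 in all 15.

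CCND1, the cyclin D1 gene, is a D cyclin raised by another myeloma translocation. By mean value over all 15 libraries, treated ones included, it was 7988th of the 16104 genes. The DMSO libraries 1 to 3 gave 448, 366 and 341 normalized counts. The A-485 libraries gave 228, 215 and 182, the GNE-781 libraries 158, 175 and 167, and the combination libraries 132, 153 and 135. The dCBP-1 libraries gave 18.6, 15.3 and 26.1. All 12 treated libraries lay below all DMSO libraries, and the 4 treatments were ordered without overlap between neighbours: A-485 highest, then GNE-781, the combination and dCBP-1. By the test, though, GNE-781 did not pass against A-485 (log2 difference -0.31, interval -0.74 to 0.12), nor the combination against GNE-781 (-0.25, interval -0.68 to 0.18). Group means were 385 ± 55.9 (SD, n = 3) with DMSO, 208 ± 23.8 with A-485, 167 ± 8.26 with GNE-781, 140.1 ± 11.1 with the combination and 20.02 ± 5.50 with dCBP-1.

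CCND1 fell with all 4 treatments. The log2 fold change was -0.88 ± 0.21 (SE) with A-485 (adjusted p = 0.0220), -1.19 with GNE-781 (adjusted p = 0.000237) and -1.44 with the combination (adjusted p = 1.53e-05). It was -4.22 ± 0.21 with dCBP-1 (adjusted p = 5.71e-16), a level 18.6-fold lower than with DMSO. The call for A-485 did not hold without DMSO replicates 1 and 2 (log2 fold change -0.72, adjusted p = 0.383). It was also lost when DMSO replicate 1 (adjusted p = 0.0962), DMSO replicate 2 (0.0835), A-485 replicate 2 (0.0731) or A-485 replicate 3 (0.1002) was left out. The other 3 calls held without DMSO replicates 1 and 2.

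CCND2, the cyclin D2 gene, was among the most abundantly read genes, 117th of 16104 by mean value over all 15 libraries. The DMSO libraries gave 20810.3, 21315 and 21401 normalized counts. The A-485 libraries gave 15724, 14186 and 12023, the GNE-781 libraries 16259, 14597.5 and 13917, and the combination libraries 9209, 13250.5 and 12046. The dCBP-1 libraries gave 2301, 2319.8 and 3060.2. Every treated library lay below every DMSO library, the libraries of A-485 and GNE-781 overlapped each other (log2 difference 0.10, interval -0.21 to 0.41), and the dCBP-1 libraries lay far below all others. CCND2 fell with A-485 (log2 fold change -0.61 ± 0.15, adjusted p = 0.0263), with GNE-781 (-0.51, adjusted p = 0.0189), with the combination (-0.90, adjusted p = 8.32e-05) and with dCBP-1 (-3.06 ± 0.15, adjusted p = 3.26e-16). The level with dCBP-1 was 8.34-fold lower than with DMSO.

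Calls for CCND2 with the single inhibitors depended on single libraries. With A-485 the call was lost without DMSO replicate 1 (adjusted p = 0.0571), DMSO replicate 2 (0.109), A-485 replicate 2 (0.0866) or A-485 replicate 3 (0.123), and with GNE-781 without DMSO replicate 2 (0.0613), GNE-781 replicate 2 (0.0658) or GNE-781 replicate 3 (0.0774). Without DMSO replicates 1 and 2 together, the log2 fold change of CCND2 was -0.62 with A-485 (adjusted p = 0.252) and -0.52 with GNE-781 (adjusted p = 0.147), and the calls with the combination and dCBP-1 held.

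CCND3, the cyclin D3 gene, moved the other way. The DMSO libraries gave 542, 619 and 632 normalized counts and the dCBP-1 libraries 908, 872 and 835, with no overlap. The A-485 libraries gave 598, 580.2 and 486, the GNE-781 libraries 600.3, 708 and 682, and the combination libraries 798, 706 and 775. CCND3 rose with dCBP-1, by 0.55 ± 0.14 on the log2 scale (adjusted p = 0.00187), from 598 ± 48.8 to 871 ± 36.6 (SD, n = 3). Without DMSO replicates 1 and 2 the value was 0.46, with an adjusted p of 0.0670. The combination libraries all lay above the DMSO libraries, with a log2 fold change of 0.35 (95% interval 0.07 to 0.62) that was not called (adjusted p = 0.0659). It was called under TMM scaling (adjusted p = 0.0381), median-ratio scaling (0.0460), edgeR (0.0344) and DESeq2 (0.0285), and without DMSO replicate 3 (0.0440). Values for A-485 (-0.11, interval -0.39 to 0.17) and GNE-781 (0.15, interval -0.13 to 0.43) were not called.

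The sum of the D cyclin reads, and its make-up, followed from these changes. The sum was 22158 ± 312 (SD, n = 3) normalized counts with DMSO, 14741 ± 1941 with A-485, 15755 ± 1150 with GNE-781, 12402 ± 2043 with the combination and 3452 ± 407 with dCBP-1. CCND2 made up 95.5% to 95.6% of it in the DMSO libraries and 71.3% to 78.0% in the dCBP-1 libraries. CCND3 made up 2.49% to 2.83% with DMSO and 21.3% to 28.1% with dCBP-1, and CCND1 1.52% to 2.05% and 0.479% to 0.665%. The shares of the 3 genes therefore did not overlap between DMSO and dCBP-1, and CCND2 still held most of the reads. With A-485, GNE-781 and the combination the CCND2 share was 90.8% to 95.5%, and the CCND3 share 3.53% to 7.87%. These shares were not tested, since they restate the values of the 3 genes.

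**Figure D2:**
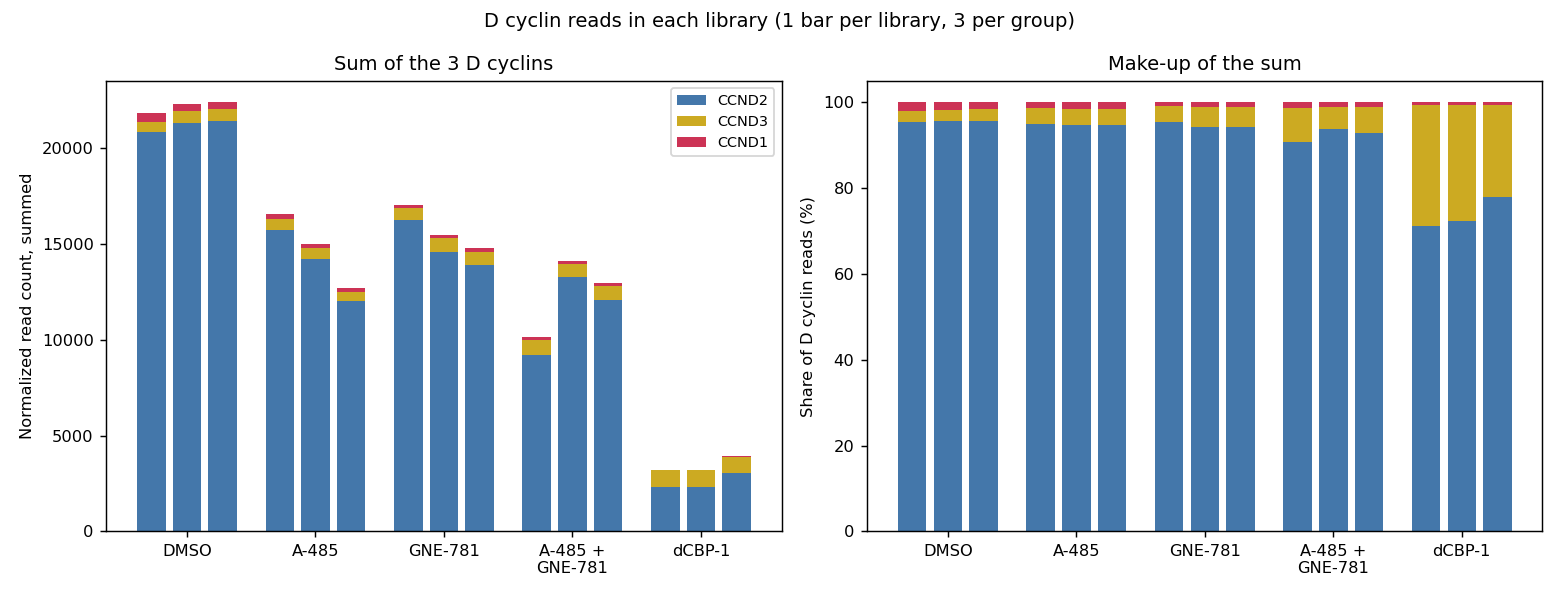
Left, the summed normalized read count of CCND1, CCND2 and CCND3 in each library (1 bar each, 3 per group); right, the share of that sum from each gene in percent. The sum falls from 21800 to 22374 with DMSO to 3207 to 3921 with dCBP-1, where the CCND3 share reaches 21.3% to 28.1%.

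CDK6 and CDK4 encode the kinases that D cyclins activate, and they responded by different amounts. The DMSO libraries gave 3435, 3731 and 4849 normalized counts of CDK6, and the A-485 libraries 3774, 3146 and 3554. The GNE-781 libraries gave 2215, 2634 and 2502, the combination libraries 1737, 2035 and 2668, and the dCBP-1 libraries 803, 741 and 590.5. A-485 and DMSO libraries overlapped, GNE-781 and combination libraries lay below all DMSO libraries but overlapped each other, and dCBP-1 libraries lay below all the rest. CDK6 fell with GNE-781 (log2 fold change -0.70 ± 0.15, adjusted p = 0.00221), with the combination (-0.91, adjusted p = 0.000106) and with dCBP-1 (-2.49 ± 0.15, adjusted p = 8.10e-14, 5.61-fold lower), and all 3 calls held without DMSO replicates 1 and 2. The value with A-485 was -0.19 (interval -0.50 to 0.13, adjusted p = 0.606).

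CDK4 was read at 2672, 2238 and 2656 normalized counts with DMSO and at 1929.5, 1712 and 1674 with dCBP-1. These libraries did not overlap, and CDK4 fell with dCBP-1 by 0.51 ± 0.12 on the log2 scale (adjusted p = 0.00138), which held without DMSO replicates 1 and 2. The 9 inhibitor libraries ran from 1888 to 2228, below all DMSO libraries. The log2 fold changes were -0.28 with A-485 (adjusted p = 0.259), -0.34 with GNE-781 (adjusted p = 0.0506) and -0.28 with the combination (adjusted p = 0.102), none called. Under TMM scaling the values with GNE-781 (adjusted p = 0.0146) and with the combination (0.0236) were called, as they were under median-ratio scaling (0.010 and 0.0167), edgeR (0.0167 and 0.0268) and DESeq2 (0.00228 and 0.00613). The value with GNE-781 was also called without DMSO replicate 2 (-0.43, adjusted p = 0.0429). The ratio of CDK6 to CDK4 reads was 1.59 ± 0.278 with DMSO, 1.68 ± 0.169 with A-485, 1.24 ± 0.0849 with GNE-781, 1.03 ± 0.150 with the combination and 0.401 ± 0.0423 with dCBP-1 (SD, n = 3).

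The promoter of CDK4 is a known target of MYC, which binds the E-box CACGTG, and MYC itself fell in these cells. In the 250 bases before the RefSeq start of CDK4 (GRCh38.p14, chromosome 12, minus strand), the E-box occurred 3 times. The sites are shown in 26 bases each, with the E-box in capitals. MYC and CDK4 fell with dCBP-1, where 37.8% of all genes tested were called. With GNE-781 and the combination MYC fell, and CDK4 was not called in limma (log2 fold changes -0.34 and -0.28). A part of MYC in the fall of CDK4 was not tested.
CDK4 site 1, chr12:57752511-57752536: gtcaagcggtCACGTGtgatagcaac
CDK4 site 2, chr12:57752491-57752516: agcaacagatCACGTGgctgccatcg
CDK4 site 3, chr12:57752396-57752421: gggtggcggtCACGTGcccagaacgt
The E-boxes spanned bases -216 to -211, -196 to -191 and -101 to -96 from the start. CACGTG, the same on both strands, was found in 6.34% of 35116 promoter windows of that length, and in 28 of them (0.0797%) at least 3 times. The E2F core TTTNGCGC, searched on both strands, had no match in the CDK4 window and was in 1.51% of windows, and the GC box GGGCGG matched 3 times there and was in 42.6% of windows. None of these motifs overlapped another in that window. A match is a run of letters and not a measured binding site. Of the 8 members 3 had a promoter window, CDK4, CDKN1B and RB1, and the CDKN1B and RB1 windows held no E-box. The CDKN1B and RB1 windows are not shown, because annotated starts differ between RefSeq and GENCODE, so they may miss the promoter in use.

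CDKN1B encodes p27, which restrains CDK2 and also takes part in the assembly of D cyclin complexes. With DMSO its libraries gave 1633, 1784 and 2071 normalized counts, and with dCBP-1 1225, 1204 and 1199, without overlap. CDKN1B fell with dCBP-1 by 0.59 ± 0.13 on the log2 scale (adjusted p = 0.000753), from 1829 ± 222 to 1209 ± 13.6 (SD, n = 3), also without DMSO replicates 1 and 2. The 9 inhibitor libraries ran from 1544 to 1986 and overlapped the DMSO libraries in each group. Their log2 fold changes were -0.09 (interval -0.36 to 0.18), -0.05 (-0.33 to 0.22) and -0.05 (-0.32 to 0.22) with A-485, GNE-781 and the combination, none called.

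CDKN2C, the gene of the INK4 inhibitor p18, had 0 reads in all 15 libraries. The upper limit taken for a count of 0 was 2.37 to 3.64 normalized counts per library, and no comparison was possible. The 0 reads stood in the DMSO libraries as in the treated ones.

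RB1 encodes the pocket protein phosphorylated by these kinases. Its SD was 25.9% of the mean with A-485, 28.8% with the combination and 21.1% with dCBP-1. With DMSO the SD was 8.65% of the mean, and with GNE-781 3.99%. The DMSO libraries gave 420.0, 364 and 362 normalized counts and the dCBP-1 libraries 265, 309 and 200.4, without overlap. The A-485 libraries gave 394, 308 and 232, the GNE-781 libraries 380.3, 399.7 and 412, and the combination libraries 242, 355 and 441. The A-485 libraries overlapped the DMSO and the dCBP-1 libraries, and so did the combination libraries. RB1 fell with dCBP-1 by 0.58 ± 0.20 on the log2 scale (adjusted p = 0.0229). The call was lost without DMSO replicate 1 (adjusted p = 0.0794), without dCBP-1 replicate 3 (-0.41, adjusted p = 0.147) and when DMSO replicates 1 and 2 were both left out (-0.51, adjusted p = 0.218). With A-485 (-0.32, interval -0.74 to 0.09), GNE-781 (0.06, interval -0.35 to 0.47) and the combination (-0.18, interval -0.59 to 0.23) it was not called.

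The bromodomain ligand of dCBP-1 is of the kind of GNE-781, and the treatments were compared at the same dose and time. Against GNE-781, dCBP-1 lowered 5 of the 7 members, where 9.31% of all genes were called, 7.13% as lower. The log2 difference was -3.03 ± 0.21 for CCND1 (adjusted p = 3.50e-12, 8.15-fold lower), -2.55 ± 0.15 for CCND2 (7.28e-14, 5.87-fold lower) and -1.79 ± 0.15 for CDK6 (4.18e-10, 3.46-fold lower). It was -0.54 for CDKN1B (adjusted p = 0.00696) and -0.64 for RB1 (adjusted p = 0.0402). The RB1 call was lost without GNE-781 replicate 1 (adjusted p = 0.0841), 2 (0.116) or 3 (0.133), or without dCBP-1 replicate 1 (0.0811) or 3 (0.215). CDK4 was not called (-0.16, interval -0.41 to 0.08). CCND3 was not called either (0.40, interval 0.12 to 0.67, adjusted p = 0.0630), and it was called under TMM scaling (0.0146), median-ratio scaling (0.0132), a fit of these groups alone (0.0217), edgeR (0.0143) and DESeq2 (0.00269).

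Against the combination of A-485 and GNE-781, dCBP-1 lowered 4 of the 7 members, where 6.17% of all genes were called, 5.61% as lower. The log2 differences were -2.78 ± 0.21 for CCND1 (adjusted p = 3.27e-11), -2.16 ± 0.15 for CCND2 (3.58e-12), -1.58 ± 0.15 for CDK6 (6.41e-09) and -0.54 ± 0.13 for CDKN1B (0.00862). The CDKN1B call was lost without combination replicate 3 (adjusted p = 0.0865). The differences for CCND3 (0.20, interval -0.08 to 0.47), CDK4 (-0.23, interval -0.48 to 0.02) and RB1 (-0.40, interval -0.81 to 0.01) were not called.

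Adding A-485 to GNE-781 changed no member past the threshold. The limma fit called 0 genes in this comparison, 0% of those tested, with 494 genes at an unadjusted p below 0.05. edgeR called 0 genes and DESeq2 7, with no member among them. CCND2 was the only tested member with an unadjusted p below 0.05, at a log2 difference of -0.39 (interval -0.69 to -0.08, adjusted p = 0.9997). Between GNE-781 and A-485, 0 members and 1% of all genes were called, with 1 member and 1991 genes at an unadjusted p below 0.05 in limma. That member was CDK6, with a log2 difference of -0.51 (lower with GNE-781; interval -0.83 to -0.20, adjusted p = 0.118). It was called under TMM scaling (0.0114), median-ratio scaling (0.00989), a fit of these groups alone (0.0149), edgeR (0.0107) and DESeq2 (0.000541).

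**Figure D3:**
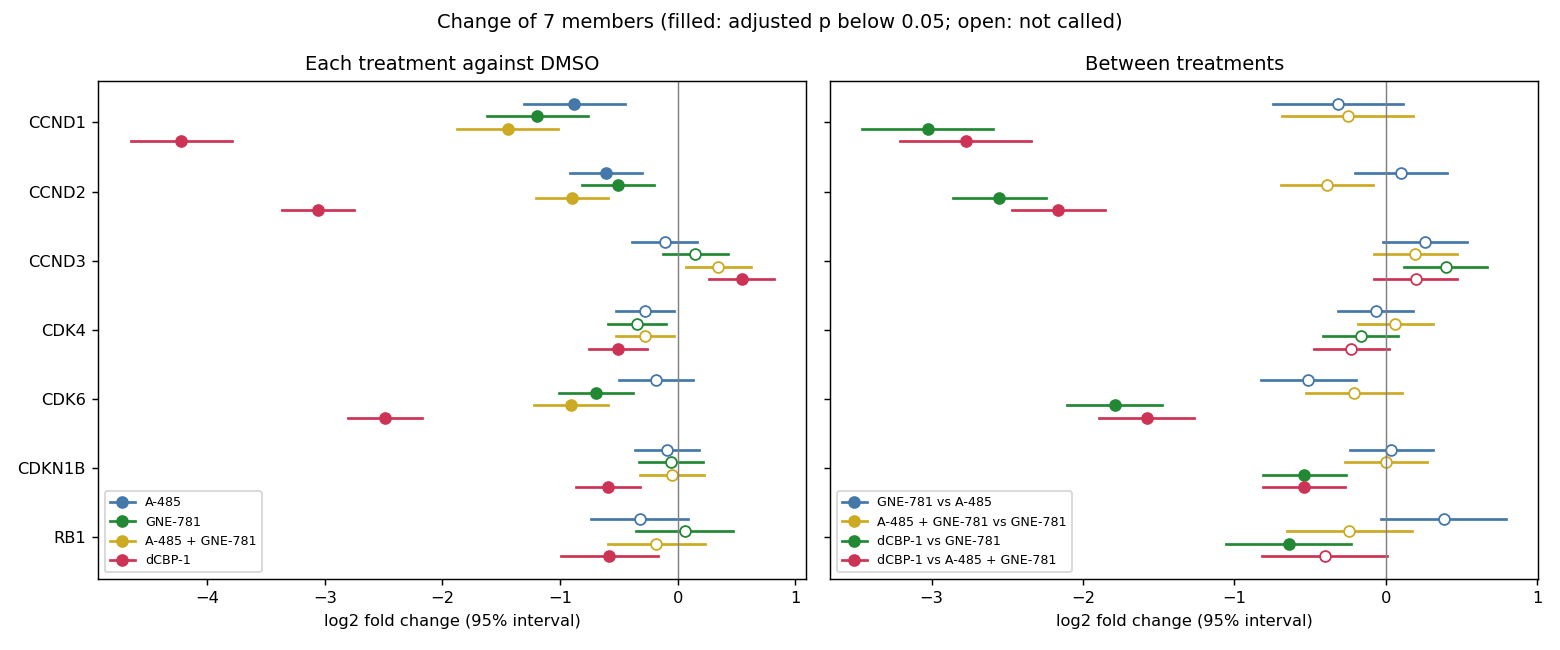
Log2 fold changes of the 7 tested members with 95% intervals, against DMSO on the left and between treatments on the right; filled points passed an adjusted p of 0.05. With dCBP-1 against DMSO, CCND1, CCND2 and CDK6 lie at -4.22, -3.06 and -2.49 and CCND3 at 0.55.

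Other genes of the pathway moved in both directions with dCBP-1. Of 55 tested in 6 lists, 13 rose and 9 fell, or 40%, close to the 37.8% of all genes tested that were called, and the counts of each list below stand against that same share. These counts were 6 and 8 without DMSO replicates 1 and 2. Of the other INK4 and CIP/KIP inhibitors, 3 of 5 were tested. With dCBP-1, CDKN2D and CDKN1C rose and CDKN1A fell. CDKN2D, the gene of the INK4 inhibitor p19, rose from 299 ± 23.9 to 599 ± 98.1 (SD, n = 3), by 0.99 ± 0.16 on the log2 scale (adjusted p = 1.01e-05). It also rose with GNE-781 (0.86, adjusted p = 0.000360) and with the combination (0.84, adjusted p = 0.000323), and these 3 calls held without DMSO replicates 1 and 2. CDKN1A, the gene of p21, fell from 1726 ± 218 to 1110 ± 6.67 with dCBP-1 (-0.63, adjusted p = 0.000338). CDKN1C, the gene of p57, changed by 0.65 (adjusted p = 0.0165), which was lost without DMSO replicates 1 and 2 (adjusted p = 0.248), DMSO replicate 2 (0.0761), dCBP-1 replicate 2 (0.0854) or dCBP-1 replicate 3 (0.0596). CDKN2A had at most 6 reads in a library and CDKN2B none.

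Of the E and A cyclins with CDK2, 5 of 6 were tested, and with dCBP-1 3 rose and 1 fell (median log2 fold change 0.35). CDK2, the kinase that acts after CDK4 and CDK6, rose from 3657 ± 480 to 5099.6 ± 665 (0.48, adjusted p = 0.00344), also without DMSO replicates 1 and 2. CCNA2, a cyclin of S phase, had a log2 fold change of 0.37 (adjusted p = 0.0372), and CDC25A, the phosphatase that activates CDK2, 0.35 (adjusted p = 0.0498). CCNE1, the cyclin E1 gene, had -0.48 (adjusted p = 0.0133). Without DMSO replicates 1 and 2 these last 3 were not called. The call of CCNE1 was also lost without DMSO replicate 2, dCBP-1 replicate 1 or dCBP-1 replicate 2 (adjusted p = 0.0628, 0.0709 and 0.0683). That of CCNA2 was lost without DMSO replicates 1 or 2 or dCBP-1 replicates 1 or 2 (0.0775, 0.173, 0.0954 and 0.124), and that of CDC25A without DMSO replicates 1 or 2 or dCBP-1 replicates 2 or 3 (0.190, 0.0665, 0.0881 and 0.307).

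Among the RB relatives and E2F factors, 1 of 12 rose and 3 fell with dCBP-1, with a median of -0.02. E2F2, an activating E2F, fell from 1982 ± 440 to 969 ± 62.6 (-1.01, adjusted p = 9.54e-07), E2F5, of the repressive class, fell from 51.9 ± 18.5 to 15.4 ± 6.41 (-1.69, adjusted p = 0.00312), and E2F3 fell by 0.44 (adjusted p = 0.00856). TFDP2, a dimerisation partner of E2F factors, rose from 51.8 ± 2.66 to 120 ± 34.4 (1.16, adjusted p = 0.00196). All 4 calls held without DMSO replicates 1 and 2, and that of E2F3 was lost without DMSO replicate 3 (-0.29, adjusted p = 0.0615). The RB relatives RBL1 (-0.01) and RBL2 (0.14) and the factor E2F1 (-0.03) were not called.

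Of the E2F targets of S phase entry, 18 of 19 were tested, and with dCBP-1 3 rose, 1 fell and 14 were not called (median 0.13). RRM1 and RRM2, the subunits of ribonucleotide reductase, rose by 0.99 ± 0.14 (adjusted p = 2.86e-06) and 0.70 ± 0.13 (adjusted p = 7.65e-05), and both also rose with GNE-781 (0.70 and 0.54) and with the combination (0.66 and 0.61). Without DMSO replicates 1 and 2 both calls with GNE-781 were lost (RRM1 0.31, adjusted p = 0.326; RRM2 0.56, adjusted p = 0.0576), as was that of RRM1 with the combination (0.27, adjusted p = 0.390), while that of RRM2 with the combination and both with dCBP-1 held. CDC6, which loads the replicative helicase, had 0.57 (adjusted p = 0.000775; 0.134 without DMSO replicates 1 and 2), and POLA1, a DNA polymerase subunit, fell by 0.43 (adjusted p = 0.0193). The helicase genes MCM2 to MCM7, PCNA and TYMS were not called. The POLA1 call was lost without DMSO replicate 3 (-0.25, adjusted p = 0.151), dCBP-1 replicate 2 (0.0955) or dCBP-1 replicate 3 (0.0557), and in a fit of these groups alone (0.0607).

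Genes of CDK activation and folding gave 2 rises among 5 with dCBP-1 (median -0.02), CDK7 (0.83, adjusted p = 0.00700) and MNAT1 (0.67, adjusted p = 0.0121), both parts of the CDK-activating kinase, and both lost without DMSO replicates 1 and 2 (adjusted p = 0.589 and 0.186) and without DMSO replicate 1 alone (0.56, adjusted p = 0.0763, and 0.48, adjusted p = 0.0933). MNAT1 was also lost without dCBP-1 replicate 3 (adjusted p = 0.0506). CCNH (-0.17) and CDC37 (-0.08) were not called, and their direction reversed without DMSO replicates 1 and 2 and without DMSO replicate 3, respectively. Of 12 genes for the turnover of D cyclins and p27, 2 rose and 3 fell (median -0.00). RNF123, of a ubiquitin ligase for p27, rose by 0.66 (adjusted p = 0.000958), RBX1, a RING subunit of cullin ligases, fell (-0.47, adjusted p = 0.00347), and so did CUL4A, a cullin (-0.49, adjusted p = 0.0201). Leaving out DMSO replicate 3 (-0.25, adjusted p = 0.202) or else dCBP-1 replicate 3 (0.0715) ended the CUL4A call, and it was not made in a fit of these groups alone (0.0613). DDB1, the CUL4 adaptor, had 0.56 (adjusted p = 0.00574; 0.492 without DMSO replicates 1 and 2, 0.0648 without DMSO replicate 2). AMBRA1, the substrate receptor that targets D cyclins, was not called (0.13, adjusted p = 0.651).

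With A-485, 0 genes of these 6 lists were called. With GNE-781, 6 rose and 3 fell, and with the combination 6 rose and 3 fell, of 55 tested. Both counts are 16.4% of the genes tested in the lists, where 16.6% and 21% of all genes were called. They were 1 and 0 with GNE-781, and 2 and 0 with the combination, without DMSO replicates 1 and 2.

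**Figure D4:**
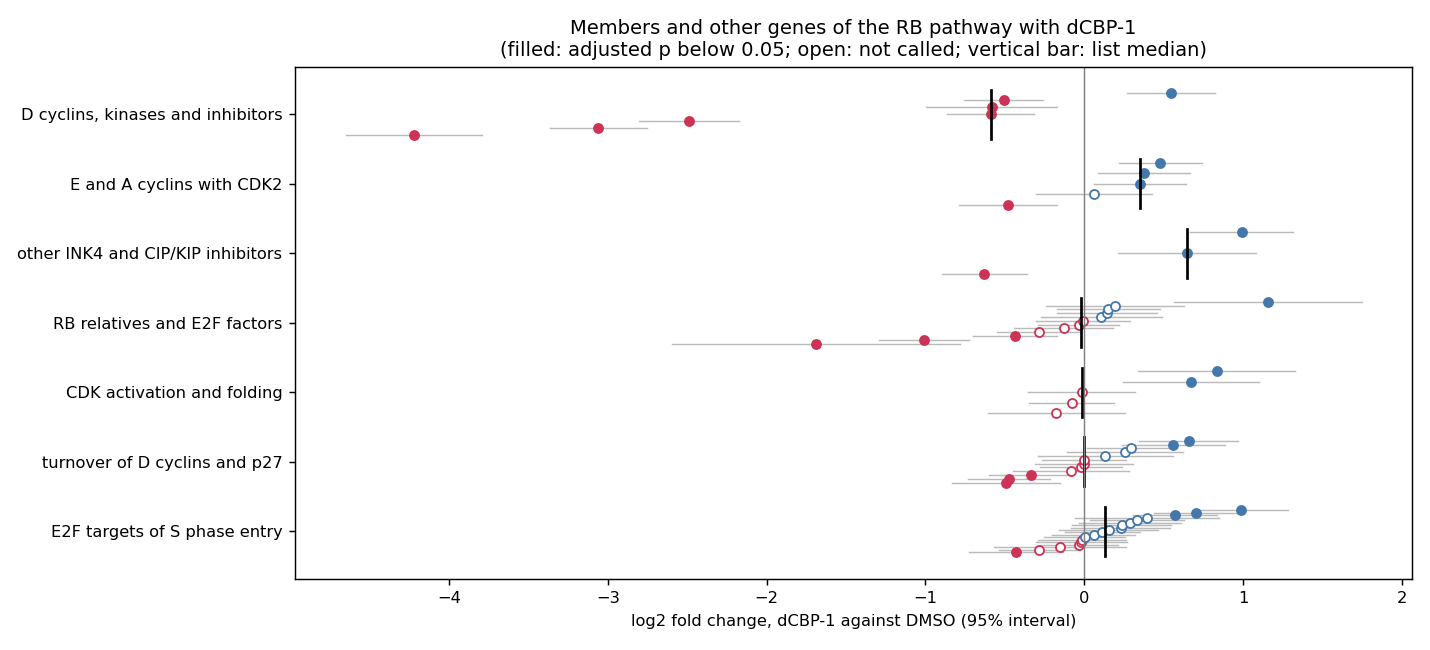
Log2 fold changes with dCBP-1 against DMSO and 95% intervals for the members (top row) and 6 lists of pathway genes; filled points passed an adjusted p of 0.05 and vertical bars are list medians. The members' median is -0.59, and the medians of the other lists run from -0.02 to 0.65.

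MAF and MYC, transcription factors known to act on D cyclin and CDK genes, both fell with GNE-781, the combination and dCBP-1. MAF was read at 15296, 18021 and 15865 normalized counts with DMSO, 11187, 9389.5 and 10179 with A-485, 6262, 6753 and 7482 with GNE-781, 5148, 5547 and 6709 with the combination and 694, 751 and 502 with dCBP-1. Its log2 fold changes were -0.68 (adjusted p = 0.0102), -1.26, -1.50 and -4.67 ± 0.14 (adjusted p = 2.72e-20), in that order of treatments. The call of MAF with A-485 was lost without DMSO replicates 1 and 2 (-0.63, adjusted p = 0.233), DMSO replicate 2 (0.0941) or A-485 replicate 2 (0.0706), and in a fit of these groups alone (0.0749). MYC fell from 1448 ± 246 with DMSO to 434 ± 99.6 with GNE-781 (-1.75, adjusted p = 0.000532), 268 ± 129 with the combination (-2.53, adjusted p = 4.18e-06) and 4.76 ± 3.23 with dCBP-1 (-8.17, adjusted p = 4.15e-18), where it had 1 to 8 reads. With A-485 MYC was at 833 ± 254 (-0.83, adjusted p = 0.215). CREBBP and EP300, the genes of CBP and p300, had log2 fold changes of 0.85 (adjusted p = 2.93e-05) and 0.41 (adjusted p = 0.0488) with dCBP-1, and the value for EP300 was not called without DMSO replicates 1 and 2 (adjusted p = 0.109), DMSO replicate 2 (0.112), DMSO replicate 3 (0.121) or dCBP-1 replicate 3 (0.21, adjusted p = 0.352). A part of any of these genes in the changes of the members was not tested.

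Over the 15 libraries, the log2 levels of CCND1 and CCND2 had a Pearson correlation of 0.99, CCND1 and CDK6 0.95, and CCND2 and CDK6 0.94, while CCND3 had -0.80, -0.77 and -0.81 with CCND1, CCND2 and CDK6. These are descriptions of libraries that share treatments, and are given without a test. Of the tested genes with at least the median level, the 3 most like CCND2 were TXNDC11 (0.99), DEPTOR (0.99) and UBE2QL1 (0.99), and the 3 most like CCND1 were TMCC3 (0.99), ST3GAL1 (0.99) and CCND2. The 3 most like CDK6 were CELF2, PRKD3 and GPRIN3, each at 0.99. For CCND3 they were UGDH (0.95), NBPF1 (0.95) and CLTA (0.95), and for CDK4 SF3B3, IGLL5 and SRM, each at 0.94. For CDKN1B they were LARP1 (0.96), WHRN (0.95) and NOC3L (0.95), and for RB1 CCDC71L (0.93), TMX1 (0.91) and HNRNPH3 (0.90).

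Some members share exon bases with a neighbour, and whether counting used strand is not given in the sources used here. CCND1 shares 497 exon bases with LTO1 on the opposite strand, and LTO1 was read at 230 ± 59.4 with DMSO and 286 ± 22.5 with dCBP-1 (0.34, not called; reversed without DMSO replicates 1 and 2, and called at 0.54 without DMSO replicate 3). CDK4 shares 1369 bases with TSPAN31, on the opposite strand, at 278 ± 23.8 with DMSO and 352 ± 35.1 with dCBP-1 (0.33, not called). CCND2 shares 989 bases with AC008012.1 on the same strand, which was not analysed here, and 126 with CCND2-AS1, which had 0 reads. BYSL and FAF1, listed as neighbours of members, share no exon bases with them. BYSL was read at 676 ± 60.1 with DMSO and 246 ± 15.4 with dCBP-1, and FAF1 at 19.7 ± 3.09 and 13.2 ± 2.13 (SD, n = 3).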

How the data were processed

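RNA was measured in 15 MM.1S libraries, grouped by their titles. Per the labels' protocols, lysis was in Trizol with added ERCC spike-ins, and the Lexogen QuantSeq 3′ FWD kit was used on column-purified RNA. The build is hg19, per the submitters' processing notes. The aligner, counting tool, annotation, normalization and strandedness are not given in the sources used here. GNE-782 and GNE-783 stand in the treatment field of 2 combination libraries whose titles say GNE-781, and the molecule is labelled as genomic DNA. These were treated as slips in the labels, without a test.

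The deposited values are a signal, normalized read counts per gene and library. Every value (100%) was a whole multiple of 1 step per library within a tolerance of 0.01, so reads were recovered by dividing by that step. The table held 47459 gene rows, 1 further row with no value and 0 ERCC rows, and RNA per cell cannot be read from it. Symbols matched 45779 rows (96.5%). For replicate pairs, chi-square over its degrees of freedom was 5.30 to 42.2, so no libraries agreed within counting error.

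Values were taken as log2(value + 1). The 16104 genes at 5 or more in at least 3 libraries were tested in 1 limma-trend model of the 5 group means (limma 3.58.1, R 4.3.3), two-sided, with Benjamini-Hochberg adjustment over all genes tested per comparison; calls are at adjusted p below 0.05. There were 8 comparisons: each of the 4 treatments with DMSO, and 4 between treatments. Alternatives were edgeR 4.0.16 and DESeq2 1.42.0 on recovered reads, a replicate block, a fit of the groups compared alone, TMM or median-ratio scaling, a pseudocount of 0.25 or 5, a filter at 20 or none, and each library left out. A fit without DMSO replicates 1 and 2 together was chosen after seeing the data. The limma, edgeR and DESeq2 fits were also run on simulated counts, which did not model the deviation of DMSO replicates 1 and 2.

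The members and gene lists were chosen with earlier results of these data known. Named are all members, MAF, MYC, CREBBP and EP300, up to 4 genes per list with the smallest p with dCBP-1, and the 3 genes most correlated with each member. AMBRA1, RBL1, RBL2, E2F1, MCM2 to MCM7, PCNA, TYMS, LTO1 and the marker genes were named after their values were seen. Cell type marker lists were for plasma, B, T, myeloid cells and fibroblasts. Sequences are from RefSeq, GRCh38.p14, and exon overlaps from GENCODE 29, and no position was set beside the hg19 values.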

Additional observations from a re-analysis of the deposited data

How the results depend on the processing

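Of 924 values for members under alternatives, 847 kept direction and side of the threshold, 32 lost the call, 26 gained it and 19 reversed. In the counts of members called, 17 of 132 moved by over 1.5 times. For A-485 (2 members) they were 0 with only the groups compared, 1 with no filter, 1 with the replicate block, 0 without DMSO replicates 1 and 2, and 0 to 2 with each library left out. For the combination (3 members) they were 5 with TMM, median-ratio, edgeR and DESeq2, which added CCND3 and CDK4. For GNE-781 against A-485 (0 members) they were 1, CDK6, with TMM, median-ratio, only the groups compared, edgeR and DESeq2.

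Counts over all genes depended more on the settings. A-485 gave 345, and 78 with only the groups compared, 178 with no filter, 853 with DESeq2 and 12 without DMSO replicates 1 and 2. With a library left out it gave 69 to 1138, namely 218, 69 and 1138 without DMSO replicates 1, 2 and 3 and 212, 132 and 184 without A-485 replicates 1, 2 and 3. GNE-781 gave 2679 (883 without DMSO replicates 1 and 2; 1467 to 3689 with each library left out, 1607 when DMSO replicate 2 was left out, 1467 for GNE-781 replicate 1, 1649 for GNE-781 replicate 2), the combination 3383 (2163 with only the groups compared; 1064 without DMSO replicates 1 and 2; 2050 to 4277 with each library left out, 2215 without DMSO replicate 2, 2050 without combination replicate 2) and dCBP-1 6092 (3788 without DMSO replicates 1 and 2). dCBP-1 against the combination gave 993 (1754 with DESeq2) and against GNE-781 1500 (2396 with only the groups compared, 2566 with DESeq2). The combination against GNE-781 gave 0 (7 with DESeq2; 0 to 1 with each library left out). GNE-781 against A-485 gave 161 (393 with TMM, 395 with median-ratio, 466 with only the groups compared, 107 with the replicate block, 413 with edgeR, 743 with DESeq2; 57 to 111 with each library left out, 76 and 103 without A-485 replicates 2 and 3, 57, 72 and 79 without GNE-781 replicates 1, 2 and 3). The split of higher and lower calls moved with scaling for A-485, from 56 and 289 to 164 and 200 with TMM and 137 and 246 with median-ratio, for dCBP-1 against the combination, from 89 and 904 to 337 and 1023 and 330 and 1043, and for dCBP-1 against GNE-781, from 352 and 1148 to 721 and 1409 with TMM. The causes were not tested.

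Of calls of single members, CCND1 with A-485 was lost with only the groups compared (adjusted p = 0.0508), CCND2 with A-485 likewise (0.156) and with no filter (0.101), and with no filter also CCND2 with GNE-781 (0.0659), RB1 with dCBP-1 (0.0515) and RB1 in dCBP-1 against GNE-781 (0.0893). CDK4 with GNE-781 was gained with a pseudocount of 0.25 (0.0476) and a filter at 20 (0.0434). With no filter CCNA2 (0.0701), CDC25A (0.0802) and EP300 (0.109) with dCBP-1 were lost, with only the groups compared CDC25A (0.102) and EP300 (0.0693), and EP300 also with median-ratio (0.0511) and a pseudocount of 0.25 (0.0542).

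Reversals were all in values not called. CDKN1B in the combination against GNE-781 (0.004) was -0.0238 with TMM, -0.0218 with median-ratio, -0.0239 with edgeR and -0.0216 with DESeq2, and -0.0840 to 0.0965 without single libraries. CDKN1B in GNE-781 against A-485 (0.04) was -0.0390 with TMM, -0.0398 with median-ratio, -0.0378 with edgeR, -0.0392 with DESeq2 and -0.0343 to 0.143 without single libraries. With each library left out, CDKN1B against DMSO was -0.196 to 0.00114 with A-485, -0.132 to 0.0395 with GNE-781 and -0.137 to 0.0432 with the combination, RB1 with the combination -0.376 to 0.0557, CCND2 in GNE-781 against A-485 -0.00414 to 0.189 and CDC37 with dCBP-1 -0.197 to 0.0729. Without DMSO replicates 1 and 2, CCNH was 0.0470 and LTO1 -0.0589 with dCBP-1.

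Replicate numbers did not pair the libraries. Deviations of the 30 same-numbered pairs correlated at -0.157 to 0.0995, and 0 were above 0.1. The replicate block cannot change the log2 fold changes, because every group holds each replicate number. With the block, CCND2 with A-485 (adjusted p = 0.0515) and RB1 in dCBP-1 against GNE-781 (adjusted p = 0.0546) were no longer called. Nor were CCNA2 (0.0574), CDC25A (0.0711) and EP300 (0.0658) with dCBP-1. At a depth of 13.1 to 18.3 M reads, CCND1 with dCBP-1 rested on 19 to 22 reads per library.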
